A study of Mus musculus with 4 samples.

Results

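The myosin light chains and the kinases that phosphorylate them were followed in mouse heart and tibialis anterior, a fast hindlimb muscle, with ribosome-protected fragments (RPF, mRNA fragments left after nuclease digestion because a ribosome covered them) and total RNA. The set was chosen by gene symbol and held 10 genes: the light chains Myl1, Myl2, Myl3, Myl4, Myl6, Myl7, Myl9 and Mylpf, and the kinases Mylk2 and Mylk3. Of these, 9 were among the 11237 gene symbols listed for either tissue, 7 among the 10791 listed for heart, 8 among the 10352 listed for tibialis anterior (TA), and 6 among the 9906 listed for both. Myl7 was listed for neither tissue. Mylk3 was listed for heart alone, and Myl4 and Mylk2 for TA alone. What made the authors list a gene is not given in the labels or file headers, and an unlisted gene may be above 0.

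There were 4 groups of 1 library each, RPF and RNA from each tissue. All came from male C57BL/6J mice aged 10 weeks with no treatment named, and the labels do not give the number of animals behind a library. One lysate of frozen tissue, made with the elongation inhibitor cycloheximide, served both the RPF and the RNA library of a tissue. Without replicates the differences have no replicate check and no p-value was computed. The intervals given are 95% intervals of counting error only.

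Muscle myosin is a hexamer of a pair of heavy chains, each carrying 1 essential and 1 regulatory light chain around its lever arm. The essential chain stiffens the lever arm, and the regulatory chain can be phosphorylated near its amino end by dedicated myosin light chain kinases, which raises the calcium sensitivity of force in striated muscle. Separate genes encode the chains of ventricle and slow fibres (Myl3 essential, Myl2 regulatory), fast fibres (Myl1, Mylpf), atrium (Myl4, Myl7) and smooth or nonmuscle cells (Myl6, Myl9), and Mylk3 and Mylk2 are the kinases known from cardiac and skeletal muscle.

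The listed values were RPM on the coding sequence of 1 RefSeq transcript per gene. They rest on 28122390 (RPF) and 9286181 (RNA) coding reads for heart and on 28517666 (RPF) and 16050109 (RNA) for TA. The authors describe RPM as scaled to the mapped reads of the library. The coding values alone, however, summed to 996268 RPM (RPF) and 993831 RPM (RNA) in heart. In TA they summed to 998118 RPM (RPF) and 996776 RPM (RNA). Values on the untranslated regions come on top of these sums, so the scale was close to coding reads alone. The tables of the 2 tissues were scaled separately by the authors. Cardiomyocyte markers were listed 8 of 8 in heart, summing to 129088 RPM of RPF and 86329 RPM of RNA. Fast fibre markers were listed 9 of 9 in TA, summing to 279010 RPM of RPF and 196315 RPM of RNA. Among 6 atrial markers Sln and Bmp10 were unlisted in heart, whose atrial sum was 87.5 RPM of RPF and 80.9 RPM of RNA, with Nppa, the atrial natriuretic peptide, at 74.0 and 62.6 RPM. Myh7, the slow heavy chain, was listed for neither tissue.

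Light chains of the same class are close relatives, so the sequences show how far short fragments can tell them apart. In each pair below the capitals mark the longest run of bases that the coding sequences of the ventricular and the fast chain share, and positions count from the A of the start codon. Sequences are from GENCODE M21 transcripts (GRCm38) linked to the listed RefSeq transcript, sense strand, 5′ to 3′.
Myl2, coding bases 63 to 102: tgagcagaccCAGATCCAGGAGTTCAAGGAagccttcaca
Mylpf, coding bases 66 to 105: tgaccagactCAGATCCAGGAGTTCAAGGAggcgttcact
Myl3, coding bases 558 to 597: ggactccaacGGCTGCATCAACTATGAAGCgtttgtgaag
Myl1, coding bases 510 to 549: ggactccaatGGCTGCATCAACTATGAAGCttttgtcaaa
In both pairs the shared run was 20 nt, shorter than the 26 nt at the lower end of the fragment sizes taken from the gel. Over the aligned coding sequence the regulatory pair was 70.1% identical and the essential pair 71.6%. All 26-mers of Myl2, Mylpf, Mylk2 and Mylk3 were absent from the coding sequences of other genes, and 99.6% of those of Myl1, 99.3% of those of Myl3 and of Myl4, and 97.6% of those of Myl9 were. Myl6 was less distinct, with 7.42% of its 26-mers found in Myl6b, a related essential light chain gene that neither table lists. The 4 chains shown above therefore share no exact match of fragment length within their pairs. Matches with a mismatch were not counted, and both printed pairs go on matching beyond a single mismatched base. How many mismatches the authors allowed, and how they treated reads with several matches, is not known here.

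The 2 main light chain pairs exchanged places between the tissues by factors of 157 to 2257. Myl2, the ventricular regulatory chain, had 10120 RPM of RPF in heart against 7.45 RPM in TA, and 8873 RPM of RNA in heart against 8.45 RPM in TA. Its heart over TA ratio was 1340-fold in RPF (log2 10.39, interval 10.22 to 10.61) and 1038-fold in RNA (log2 10.02, interval 9.80 to 10.29). Mylpf, the fast regulatory chain, had 3.97 RPM of RPF in heart against 9186 RPM in TA, and 20.4 RPM of RNA in heart against 9894 RPM in TA. Its log2 heart over TA ratio was -11.14 in RPF (interval -11.45 to -10.91) and -8.91 in RNA (interval -9.13 to -8.71). The RNA ratio of Mylpf was the lowest of the 9843 genes compared, and its RPF ratio ranked 9839 from the top. In bulk tissue, fewer cells of a type and less RNA per cell cannot be told apart.

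The essential chains moved the same way. Myl3, the ventricular and slow essential chain, had 18006 RPM of RPF in heart against 94.7 RPM in TA, and 4608 RPM of RNA in heart against 19.1 RPM in TA. Its log2 ratio was 7.57 in RPF (interval 7.52 to 7.63) and 7.91 in RNA (interval 7.76 to 8.09). Myl1, the fast essential chain, had 21.3 RPM of RPF in heart against 6650 RPM in TA, and 35.0 RPM of RNA in heart against 5504 RPM in TA. Its log2 ratio was -8.28 in RPF (interval -8.40 to -8.17) and -7.29 in RNA (interval -7.45 to -7.14). The listed Myl1 transcript encodes the long form of the fast essential chain. Another annotated coding transcript of the gene shares 74.0% of its 26-mers, so reads of the 2 forms were not separated.

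**Figure D1:**
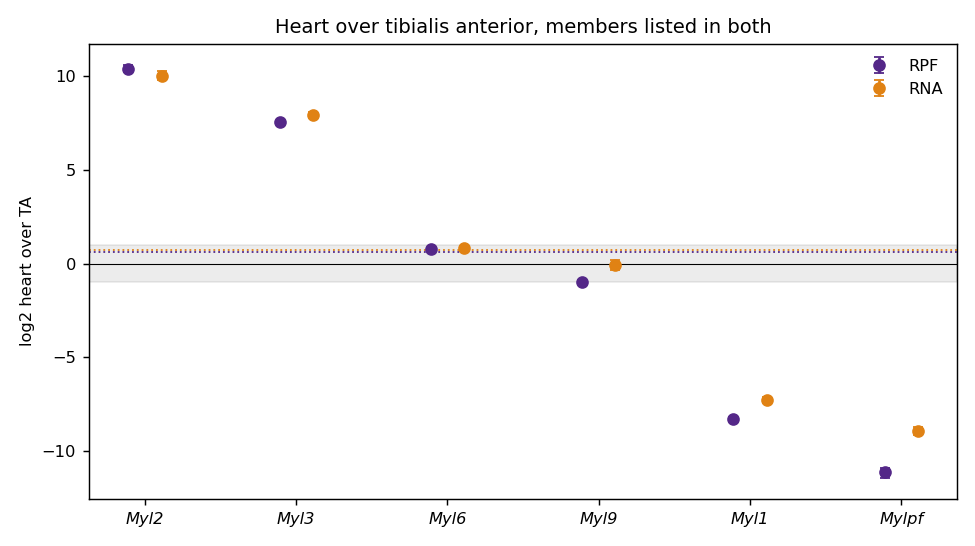
Log2 heart over TA ratio of RPF (purple) and RNA (orange) for the 6 members listed in both tissues, with 95% counting intervals. The grey band marks less than 2-fold, and the dotted lines mark the median of all genes, 0.60 in RPF and 0.70 in RNA. Myl2 and Myl3 lie at 7.57 or above, Myl1 and Mylpf at -7.29 or below, and Myl6 and Myl9 lie inside the band.

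The nonmuscle chains differed far less between the tissues. Myl6, the essential chain of nonmuscle and smooth muscle myosin, had 367 RPM of RPF in heart against 216 RPM in TA, and 104 RPM of RNA in heart against 58.8 RPM in TA. Its log2 ratio was 0.76 in RPF (interval 0.72 to 0.81) and 0.82 in RNA (interval 0.69 to 0.96), which is 0.17 and 0.12 relative to the median gene. Myl9, a regulatory chain of smooth muscle, had 50.8 RPM of RPF in heart against 99.9 RPM in TA, and 19.9 RPM of RNA in heart against 21.2 RPM in TA. On the deposited scale its RPF was lower in heart (log2 -0.97, interval -1.07 to -0.88), and its RNA differed by less than counting error (log2 -0.09, interval -0.35 to 0.18). Relative to the median gene both were lower in heart, RPF at -1.57, past 2-fold, and RNA at -0.79. Smooth muscle and pericyte markers, 11 of 12 listed in each tissue, summed to 1807 RPM of RPF in heart against 1136 RPM in TA, and to 1929 RPM of RNA in heart against 888 RPM in TA. Of these sums Abcc9 alone gave 839 RPM of RPF and 944 RPM of RNA in heart, and 393 and 495 RPM in TA. Myh11 was counted in heart only and Cnn1 in TA only. Of the 10 such markers measured in both, 2 passed 2-fold higher in heart for RPF, where 30.1% of all genes did, and 7 for RNA, where 35.0% did, and none passed 2-fold lower for either. The marker median was 0.47 in RPF and 1.23 in RNA. Tagln, the lowest in RPF, stood at -0.999 in RPF and -0.02 in RNA. Lmod1, the lowest in RNA, stood at -0.94 and -0.26, so both lay nearer to Myl9 than the marker medians did. The part of smooth muscle content in the Myl9 values was not tested.

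Of the 6 members measured in both tissues, 2 (Myl2, Myl3) were at least 2-fold higher in heart and 2 (Myl1, Mylpf) at least 2-fold lower, in RPF and in RNA alike. Among all 9843 genes, 30.1% were at least 2-fold higher in heart in RPF and 5.06% at least 2-fold lower. For RNA the shares were 35.0% and 3.88%. The members' median log2 ratio was -0.11 in RPF and 0.37 in RNA, against 0.60 and 0.70 over all genes. The 4 striated members lay at the 2 ends of the gene ranking, so the median does not describe any of them.

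The libraries of each tissue also held a trace of reads assigned to the other tissue's pair. Mylpf in heart stood at 0.0432% of its TA level in RPF (112 reads) and 0.207% in RNA (191 reads). Myl1 in heart stood at 0.320% of its TA level in RPF (601 reads) and 0.636% in RNA (327 reads). Myl2 in TA stood at 0.0736% of its heart level in RPF (213 reads) and 0.0952% in RNA (136 reads), and Myl3 in TA at 0.526% in RPF (2704 reads) and 0.414% in RNA (307 reads). The traces did not keep the ratio of the pair in its main tissue. Per kilobase of coding sequence, heart held 4.82 Myl1 per Mylpf in RPF (interval 3.93 to 5.95) and 1.54 in RNA (1.28 to 1.85), while TA held 0.650 and 0.500. For the ventricular pair, TA held 10.3 Myl3 per Myl2 in RPF (8.97 to 11.9) and 1.83 in RNA (1.49 to 2.26), while heart held 1.45 and 0.422. In all 4 cases the essential chain was the more abundant trace, and its excess was larger than the counting intervals.

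Markers of the cells that normally carry these pairs were also present at low level. In heart 6 of 9 fast fibre markers were listed, summing to 61.6 RPM of RPF and 212 RPM of RNA, with the heavy chains Myh4 and Myh1 and the actinin Actn3 unlisted. In TA 5 of 7 slow fibre markers were listed, summing to 114 RPM of RPF and 110 RPM of RNA, with the heavy chains Myh7 and Myh7b unlisted. Most of both sums came from the calcium pump Atp2a2, with 72.6 RPM of RPF and 65.4 RPM of RNA. Myoz2 had 16.3 and 35.7 RPM, Tnnt1 12.3 and 4.97 RPM, Tnnc1 7.76 and 2.36 RPM, and Tnni1 5.32 and 1.24 RPM. Cardiomyocyte markers in TA were listed 4 of 8 and summed to 33.6 RPM of RPF and 10.6 RPM of RNA. The source of the trace light chain reads, including the part of such cells or of reads placed with a mismatch, was not tested.

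The atrial members were largely missing from the lists. Myl7, the atrial regulatory chain, has no value in either tissue. Myl4, the atrial essential chain, which is also made in developing muscle, was unlisted in heart and had 10.1 RPM of RPF (288 reads) and 4.41 RPM of RNA (71 reads) in TA. In TA 3 of 5 markers of developing or regenerating muscle were listed, summing to 15.1 RPM of RPF and 9.81 RPM of RNA, with the developmental heavy chains Myh3 and Myh8 unlisted.

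Ribosome occupancy and RNA gave different orders of the 2 classes in heart. On the scale of RPM per kilobase of coding sequence, Myl3 stood at 29566 in heart RPF and 7567 in heart RNA, and Myl2 at 20445 in heart RPF and 17925 in heart RNA. Heart therefore had 0.691 Myl2 per Myl3 in RPF (interval 0.688 to 0.695) but 2.37 in RNA (interval 2.34 to 2.40). In TA, Mylpf stood at 18226 in RPF and 19631 in RNA, and Myl1 at 11855 in RPF and 9811 in RNA. TA thus had 1.54 Mylpf per Myl1 in RPF (interval 1.53 to 1.55) and 2.00 in RNA (interval 1.98 to 2.02), so the regulatory chain led in both. By rank per kilobase among all genes, Myl3 was number 4 in heart RPF and 8 in heart RNA, Myl2 7 and 2, Mylpf 10 and 2 in TA, and Myl1 12 and 12.

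**Figure D2:**
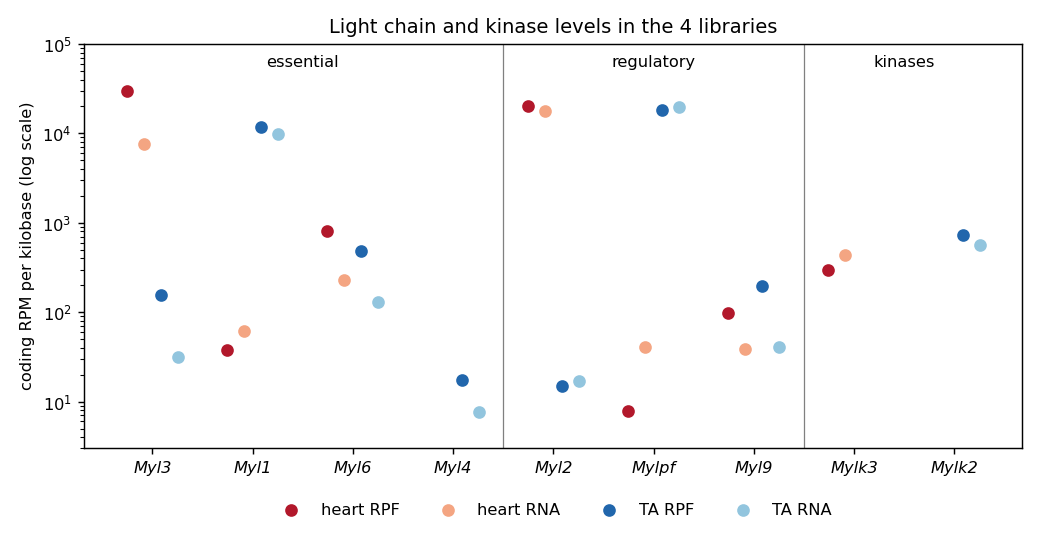
Coding RPM per kilobase (log scale) of the 9 listed members in each library, with essential chains, regulatory chains and kinases side by side. The ventricular pair lies near the top in heart and the fast pair near the top in TA, while a member with no point in a tissue was not listed there.

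Summed over the listed members, light chains took 2.86% of the RPF and 1.37% of the RNA coding reads in heart, and 1.63% of the RPF and 1.55% of the RNA coding reads in TA. Of the light chain total per kilobase, Myl3 was 58.0% in heart RPF against 29.3% in heart RNA, and Myl2 was 40.1% in RPF against 69.3% in RNA. In TA, Mylpf was 58.9% of RPF and 66.2% of RNA, and Myl1 was 38.3% and 33.1%. Myl6 made up 1.60% of the RPF and 0.893% of the RNA total in heart, and 1.55% of the RPF and 0.440% of the RNA total in TA. The ratio of regulatory to essential chains over all members was 0.676 in RPF and 2.29 in RNA for heart, and 1.47 in RPF and 1.97 in RNA for TA. Among the 4 libraries, only in heart RPF did the essential class exceed the regulatory one.

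**Figure D3:**
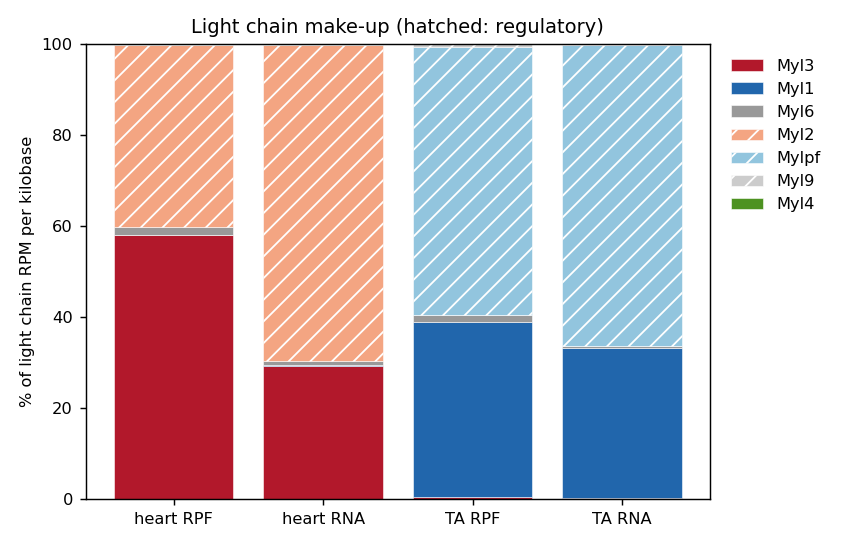
Share of each light chain in the summed RPM per kilobase of the listed light chain members, with regulatory chains hatched. Myl3 fills 58.0% of heart RPF and 29.3% of heart RNA, whereas Mylpf stays above Myl1 in both TA libraries.

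Against their heavy chains the pairs also differed by tissue. Myh6, the main adult cardiac heavy chain, made up 99.9% of the listed sarcomeric heavy chain total per kilobase in heart RPF and 99.8% in heart RNA, and Myh4, the IIb heavy chain, 89.5% of that of TA RPF and 88.6% of that of TA RNA. In heart there were 1.31 Myl2 and 1.90 Myl3 per heavy chain in RPF, and 1.71 Myl2 and 0.722 Myl3 per heavy chain in RNA. In TA there were 0.725 Mylpf and 0.472 Myl1 per heavy chain in RPF, and 0.999 Mylpf and 0.499 Myl1 per heavy chain in RNA. Each heavy chain binds 1 chain of each class in the assembled motor, but these ratios compare read densities and do not count protein molecules. The ratio nearest to 1 was that of Mylpf in TA RNA. The ratio farthest from 1 was that of Myl3 in heart RPF on a linear scale and that of Myl1 in TA RPF on a log scale.

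**Figure D4:**
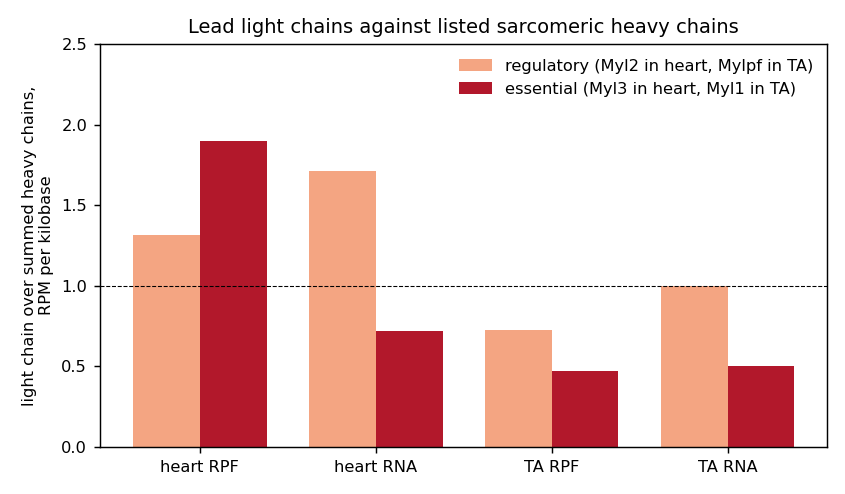
Regulatory and essential light chain per summed sarcomeric heavy chain, both in RPM per kilobase, in each library. The dashed line marks 1 light chain per heavy chain: the heart RPF bars stand at 1.31 and 1.90, and the TA bars at 0.999 or below.

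The kinases stood far below their substrates. Mylk3, cardiac myosin light chain kinase, had 705 RPM of RPF and 1037 RPM of RNA in heart, and was unlisted in TA. Mylk2, the skeletal kinase, had 1334 RPM of RPF and 1046 RPM of RNA in TA, and was unlisted in heart. Per kilobase Mylk3 stood at 296 in heart RPF and 435 in heart RNA, and Mylk2 at 727 in TA RPF and 570 in TA RNA. On this scale the ratio of Myl2 to Mylk3 was 69.1 in heart RPF and 41.2 in heart RNA. The ratio of Mylpf to Mylk2 was 25.1 in TA RPF and 34.5 in TA RNA. TA listed another kinase of the family, Mylk4, with 1708 RPM of RPF and 664 RPM of RNA. Per kilobase Mylk4 stood at 1475 in TA RPF, above Mylk2, and at 574 in TA RNA, near Mylk2. The TA ratios leave Mylk4 out. Mylk, the smooth muscle kinase, was listed in both tissues, with 56.6 RPM of RPF in heart against 74.9 RPM in TA, and 54.9 RPM of RNA in heart against 43.0 RPM in TA.

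Translational efficiency, here RPF over RNA relative to the median gene of the same tissue, separated the light chains into a high group and a middle group. The median ratio of RPF to RNA was 0.737 in heart and 0.835 in TA. Myl3 stood at log2 2.41 in heart (interval 2.39 to 2.42) and 2.57 in TA (2.40 to 2.74), at percentiles 98.6 and 99.2 of all genes. Myl6 stood at 2.26 in heart (2.16 to 2.35) and 2.14 in TA (2.04 to 2.24), and Myl9 at 1.79 in heart (1.57 to 2.02) and 2.49 in TA (2.33 to 2.66). These 3 chains were at least 2-fold above the median gene in both tissues. Myl4, measured in TA alone, was also above it, at 1.43 (1.07 to 1.85).

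The other members were nearer to the median gene, with 1 exception. Myl2 stood at 0.63 in heart (0.61 to 0.64) and 0.08 in TA (-0.24 to 0.40). Myl1 stood at -0.27 in heart (-0.48 to -0.08) and 0.53 in TA (0.52 to 0.54). Mylpf stood at 0.15 in TA (0.14 to 0.16), its main tissue, but at -1.90 in heart (-2.28 to -1.58), at percentile 4.84 of all genes. The kinases were at -0.12 for Mylk3 in heart (-0.16 to -0.09) and 0.61 for Mylk2 in TA (0.58 to 0.64). In heart 3 of 7 members were at least 2-fold above the median gene and 1 was at least 2-fold below, where 16.0% and 17.8% of 10680 genes were. In TA 4 of 8 were above and 0 below, where 15.4% and 18.7% of 10029 genes were. The members' median was 0.63 in heart and 1.02 in TA. The listed light chains have short coding sequences, of 450 to 609 nt. With the trend in coding length removed, every listed light chain stood lower, such as Myl2 in heart at 0.013, while both kinases stood higher. The members at least 2-fold above were then 3 in heart and 3 in TA.

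**Figure D5:**
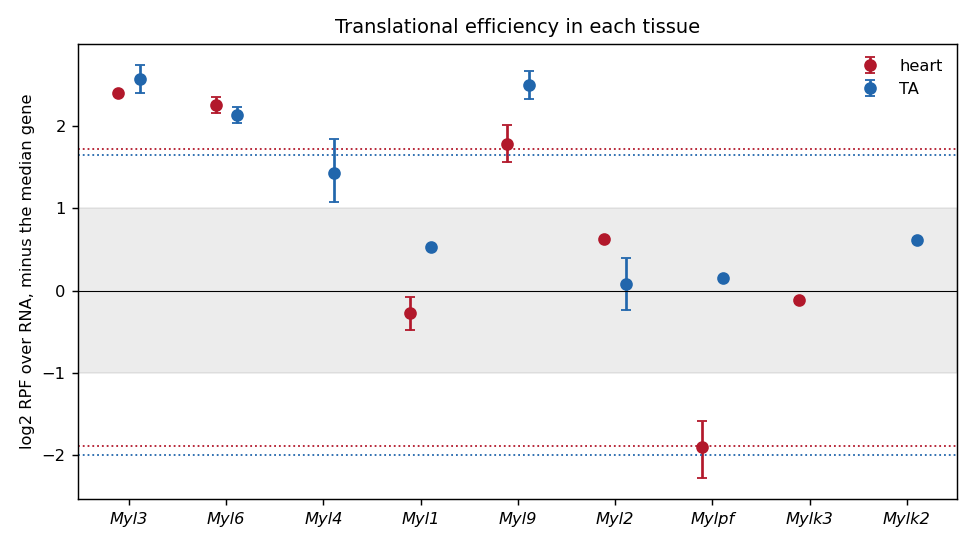
Translational efficiency (log2 RPF over RNA, minus the median gene of the tissue) of each listed member in heart (red) and TA (blue), with 95% counting intervals. The grey band marks less than 2-fold and the dotted lines the 5th and 95th percentiles of all genes in each tissue. Myl3, Myl6 and Myl9 lie above the band in both tissues, and Mylpf lies below it in heart.

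The start codon context is among the parts of an mRNA known to influence initiation, and it differs among the light chains. The capitals mark the start codon, between the 9 bases before it and the 4 after it.
Myl3: acagctccaATGgccc
Myl6: gcagccaagATGtgtg
Myl9: aaaggcaagATGtcga
Myl4: taaagcaacATGcctc
Myl1: ttaatcaaaATGgcac
Myl2: tcagacaccATGgcac
Mylpf: atctaagacATGgcac
Mylk3: cgaattgggATGtcag
Mylk2: acctacctcATGacta
A purine 3 bases before the start codon and a G right after it are the best known favourable features in mammals. The purine was present in 7 of the 9 listed members, all but Myl3 and Mylk2, and in 86.8% of 10857 listed genes with a matched transcript. The G was present in 4 of 9, the striated pairs Myl1, Myl2, Myl3 and Mylpf, and in 52.8% of the genes. The member with the highest efficiency value in each tissue, Myl3, lacked the purine, and Myl6 and Myl9 lacked the G. Such a match is a description of these letters only.

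Between the tissues the efficiency of Mylpf and Myl1 differed most. Mylpf was at -1.90 in heart and 0.15 in TA, a heart minus TA difference of -2.05 (counting standard error 0.17) that ranked 9620 of 9635 genes from the top. Myl1 was at -0.27 in heart and 0.53 in TA, a difference of -0.81 (counting standard error 0.10). Myl9 differed by -0.71 (0.14), Myl3 by -0.16 (0.09), Myl6 by 0.12 (0.07) and Myl2 by 0.55 (0.16). Of the 6 members, 0 were at least 2-fold higher in heart and 1, Mylpf, at least 2-fold lower, where 4.07% and 2.34% of genes were.

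The low heart efficiency of Mylpf was not shared by the fast chain Myl1 (-0.27), but it was shared by most fast fibre markers. Of the 6 such markers listed in heart, 5 were at least 2-fold below the median gene in heart (median -1.44), and in TA 0 of 9 were (median 0.82). Heart minus TA, 5 of the 6 were at least 2-fold lower. For the opposite trace, the 4 cardiomyocyte markers measured in TA had a median of 1.35 there, beside 0.08 for Myl2 and 2.57 for Myl3 in TA. The smooth muscle and pericyte markers, which share their cell type with Myl9, had a median heart minus TA difference of -0.60 over 10 genes, beside -0.71 for Myl9. Lists of other cell types had like or larger medians, -0.70 for 7 endothelial markers and -0.95 for 6 markers of macrophages and leukocytes. What sets these values was not tested.

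Reads outside the coding sequence gave a further view of the messages. In RPF, the 5′ untranslated region (UTR) held 4.84% of all Myl2 reads in heart (interval 4.77 to 4.92%), 3.35% of those of Mylk3 in heart, 3.31% of those of Mylpf in TA and 3.27% of those of Mylk2 in TA. The main essential chain of each tissue had less there, 0.885% for Myl3 in heart and 0.437% for Myl1 in TA. The contrast did not extend to the whole classes. The regulatory chain Myl9 had 0.353% in heart and 0.100% in TA, and the essential chain Myl4 had 1.37% in TA (4 of 292 reads). The median gene had 1.91% in heart and 1.24% in TA. In RNA the 5′ UTR held 5.69% of Myl2 reads and 4.51% of Myl3 reads in heart, and 6.42% of Mylpf reads and 1.20% of Myl1 reads in TA, where the median gene had 1.11% in heart and 1.06% in TA. Thus Myl3 had a 5′ UTR share near that of Myl2 in RNA but well below it in RPF.

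Among the members the smooth muscle chain Myl9 showed the widest gap between RPF and RNA. Its 5′ UTR held 0.353% of RPF reads against 9.83% of RNA reads in heart, and 0.100% of RPF reads against 8.53% of RNA reads in TA. Myl6 had 0 of 10372 RPF reads in its 5′ UTR in heart, which allows a share of up to 0.0289%, and 0 of 1151 RNA reads. Its listed 5′ UTR is 14 nt long, shorter than a fragment, so the RPF count does not show whether ribosomes occupied it. In the 3′ UTR the members had between 0 and 0.556% of RPF reads in heart and between 0 and 1.28% in TA, where the median gene had 0.706% and 0.365%. RNA reads of the 3′ UTR ran from 6.37 to 39.3% in heart and from 5.17 to 45.3% in TA, against 30.4% and 31.6% for the median gene. Members above the median gene in this share were 0 of 7 in heart RPF, 2 of 7 in heart RNA, 1 of 8 in TA RPF and 2 of 8 in TA RNA. The member above it in TA RPF, at 1.28%, was Myl2, with only 3 of 224 reads (interval 0.46 to 3.86%). In RNA, Mylpf was the lowest and Myl9 the highest member in both tissues, and their listed 3′ UTRs are 92 and 495 nt long.

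Other light chains of the family filled gaps in the set. Myl12a, a nonmuscle regulatory chain, had 1023 RPM of RPF in heart against 360 RPM in TA, and 426 RPM of RNA in heart against 103 RPM in TA. Its coding sequence is 85.5% identical to that of Myl9, and 94.7% of its 26-mers occur in other genes, mainly its near copy Myl12b, so its level is uncertain. Its efficiency, uncertain for the same reason, was 1.70 in heart and 2.06 in TA. These values were nearer to those of Myl6 and Myl9 than to those of Myl2 and Mylpf. Myl10, another regulatory chain, was listed for TA alone, with 10.5 RPM of RPF and 4.29 RPM of RNA. Myl6b and Myl12b were unlisted.

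The enzymes and inhibitors that set light chain phosphorylation were followed as a list. Of 17 such genes 14 were measured, and Ppp1r14a, Zak and Mylip were unlisted. In RPF 4 were at least 2-fold higher in heart and 1 was at least 2-fold lower, beside 30.1% and 5.06% of all genes. In RNA 5 were higher and 2 lower, beside 35.0% and 3.88%, so the numbers higher in heart are near the all-gene shares. The list had median log2 ratios of 0.39 in RPF and 0.25 in RNA, which lie below the all-gene medians of 0.60 and 0.70. Rock1, a kinase that inhibits myosin phosphatase, had 75.8 RPM of RPF in heart against 13.2 RPM in TA, and 221 RPM of RNA in heart against 42.3 RPM in TA. Its log2 ratio was 2.51 in RPF and 2.38 in RNA, the highest of the list in both. Ppp1r14c, an inhibitor of the phosphatase, was at 1.54 in RPF, and Ppp1r12c, a targeting subunit, at 1.95 in RNA.

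Pak1, a kinase with targets in the cytoskeleton, had 3.51 RPM of RPF in heart against 5.04 RPM in TA, and 1.50 RPM of RNA in heart against 28.3 RPM in TA. Its log2 ratio was -4.15 in RNA but -0.51 in RPF, and its heart RNA is near the minimum of 1 RPM.

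In heart 6 of the 14 regulators had an efficiency at least 2-fold above the median gene and 2 below, beside 16.0% and 17.8% of all genes. In TA 3 were above and 3 below, near the all-gene shares of 15.4% and 18.7%. Dapk3, a kinase that can phosphorylate the regulatory chain, stood at 2.29 in heart and 1.56 in TA, and Rhoa, the activator of the Rock kinases, at 1.93 in heart and 2.35 in TA. The Rock kinases were low in both tissues, Rock1 at -1.10 in heart and -1.41 in TA and Rock2 at -1.14 in each. Between the tissues Pak1 alone passed 2-fold, with a heart minus TA difference of 3.82, and the lowest of the list was Ppp1r12c at -0.52.

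The genes whose levels lay closest to each member over the 4 libraries were found by Euclidean distance of log2 RPM per kilobase among genes listed in both tissues. Closest to Mylpf were Tnnt3 and Tnnc2, fast troponins T and C (distances 0.53 and 0.66), and closest to Myl1 were Tnni2, fast troponin I, and Mylpf (1.97 and 2.62). Closest to Myl2 were the calcium pump Atp2a2 and its regulator Pln (1.55 and 1.99), and closest to Myl3 were Pln and the cardiac actin Actc1 (2.78 and 2.96). Myl6 lay closest to Mrps21, a mitochondrial ribosomal protein, and Tmod1, a cap of actin filaments (0.50 and 0.63), and Myl9 to the transcription factor Nfic and the cell cycle inhibitor Cdkn1b (0.72 and 0.73). The distances are a description over 4 libraries and are small for Mylpf and large for Myl3.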

How the data were processed

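The authors deposited RPM values of RPF and RNA, 1 set per tissue. These cover the coding sequence and both UTRs of 1 RefSeq transcript per gene. The headers name the mapped reads of the library as the scale. The sums of the coding values, given above, lie close to a scale of coding reads alone. Per the submitters' processing notes, Bowtie and the build mm9 were used, with no Bowtie version; read filters are not stated in the labels. Fragments were size-selected on a gel, per the labels' protocols.

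In each library 100% of values under 3 RPM lay within 0.005 RPM of a whole number of reads, with steps of 0.0354 RPM (RPF) and 0.107 RPM (RNA) in heart and of 0.035 RPM (RPF) and 0.0621 RPM (RNA) in TA. Recovered reads gave conditional Clopper-Pearson intervals of ratios and Wilson intervals of shares. For RPF the rounding is a sizeable part of a step. A count test could not be fitted, because with 1 library per group there are no residual degrees of freedom.

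Ratios are log2 of values plus a pseudocount of 0.1 RPM, which understates changes of low genes. Heart and TA were compared for genes with a mean RNA of at least 1 RPM, without centring. Efficiency was centred on the median gene with at least 1 RPM of RNA in its tissue. The call rule was 2-fold. For symbols on several rows (5 in heart, 4 in TA) the highest row was used. Genes named were all members, their relatives, heavy chain partners, the 2 nearest genes of each member and up to 4 extremes of the regulator list per comparison, some of which are counted but not reported here by name. Levels per kilobase divide by the listed coding length, which was 6 nt shorter than start to stop codon in 99.0% of linked transcripts. The planned comparison of protein sequences was replaced by one of coding sequences. Members and lists were chosen with earlier results of these data known. Genome coordinates are left out, because the reference at hand is GRCm38.

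Computations used Python 3.11.15, numpy 2.4.6, pandas 2.3.3, scipy 1.17.1, statsmodels 0.14.6, Biopython 1.88 and matplotlib 3.10.9 and were tested on simulated data.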

Additional observations from a re-analysis of the deposited data

Results flagged for a closer look

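Efficiency had opposite signs in the 2 tissues for a pair of members. Mylpf stood at -1.90 in heart and 0.15 in TA, a heart minus TA difference of -2.05, and Myl1 at -0.27 in heart and 0.53 in TA, a difference of -0.81. Each sign rests on 1 RPF and 1 RNA library per tissue, and the difference was not tested. The heart values of Mylpf rest on 112 RPF and 191 RNA reads. Mylpf was at -0.36 in TA with the trend in coding length removed and at -0.11 without centring, so the opposite signs of Mylpf depend on those choices. Myl1 stayed below 0 in heart (-0.84 to -0.14) and above 0 in TA (0.048 to 0.65) under the alternatives run.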

How the results depend on the processing

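No paired analysis was possible because each group has 1 library, which also leaves no replicate to leave out. No member value past 2-fold changed its sign under any alternative run. Of the recomputed counts of members and class ratios, 80 stayed near the reported value (a count within 1.5 times it, a ratio within its interval) and 10 moved. Of the values of single members 161 stayed within their counting interval and 84 moved beyond it. The regulatory to essential ratio was 0.553 (RPF) and 1.88 (RNA) for heart and 1.33 (RPF) and 1.78 (RNA) for TA without division by length, and 0.815, 1.77 and 1.67 in heart RPF, TA RPF and TA RNA with whole-transcript reads per kilobase. By density in place of share, members above the median gene in the 3′ UTR were 1 of 7 in heart RPF (0 by share), 2 of 8 in TA RPF (1 by share) and 4 of 8 in TA RNA (2 by share). Smaller changes were 3 of 7 in heart RNA (2 by share), and for the 5′ UTR 2 of 7 in heart RPF (3), 3 of 8 in TA RPF (4) and 5 of 8 in TA RNA (7). Among single members, Myl9 RPF passed 2-fold lower in heart when centred (-1.57), Myl2 efficiency in heart passed 2-fold with whole-transcript RNA (1.18), and Myl4 efficiency in TA fell short of 2-fold with the length trend removed (0.96) and was not measured at a minimum of 5 RPM. The counts then were 3 lower in RPF, 4 above the median gene in heart and 3 in TA. Removing the length trend turned the efficiency sign of Myl2 (-0.44) and Mylpf (-0.36) in TA and of Mylk3 in heart (0.17). Whole-transcript RNA turned that of Mylk3 (0.34). Leaving out the centring turned that of Myl2 (-0.18) and Mylpf (-0.11) in TA and of the Myl6 difference (-0.057). The cause was not tested. Over all genes the share of higher among called genes was 49.8% in RPF and 56.5% in RNA when centred on the median gene, against 85.6% and 90.0%, a shift of -0.60 and -0.70. Without the 50 most abundant genes it was 56.4% and 64.6%. For efficiency it was 21.1% in heart, 28.7% in TA and 32.8% for their difference without centring, against 47.3%, 45.2% and 63.5%. Low traces rest on few reads, such as the 112 of Mylpf RPF in heart.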
